A study of Mus musculus with 12 samples.

Results

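Genes of synaptic vesicle release were examined in intracranial B16 F1 melanomas: Snap25, Stx1a, Vamp2, Syt1, Syp, Sv2a, Syn1, Syn2 and Amph. They were taken from the deposited tables by the Ensembl identifier that maps to each symbol, and 9 of the 47069 genes in the tables were members. All 9 passed the filter on low counts that left 15925 genes for testing. B16 F1 is a mouse melanoma cell line that grows in C57BL/6 mice, the strain from which it came. In every group, 100000 B16 cells had been placed in the brain and the intracranial tumor was taken for RNA sequencing on day 9. The 4 groups, of 3 libraries each, were mice with an intracranial tumor only given IgG, mice with an intracranial tumor only given anti-PD-1 plus anti-CTLA-4 (here "therapy"), mice with both an intracranial and an extracranial tumor given IgG, and mice with both tumors given therapy. Anti-PD-1 and anti-CTLA-4 are antibodies against inhibitory receptors of T cells. The whole lysed tumor was sequenced, so any brain tissue taken with it is part of each library. The labels do not say whether 2 libraries can come from 1 mouse, and p-values then measure only the spread between these libraries.

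A neuron releases transmitter when calcium enters the nerve ending and makes a filled vesicle fuse with the outer membrane. The pull that fuses the membranes comes from SNARE proteins: Vamp2 on the vesicle, and Stx1a and Snap25 on the outer membrane. Syt1 is the calcium sensor on the vesicle, Syp and Sv2a are membrane proteins of the vesicle, the synapsins Syn1 and Syn2 hold vesicles in reserve, and Amph (amphiphysin) takes part in bringing the membrane back by endocytosis.

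Library totals were 18427495 to 22294182 reads assigned to genes. Counts were divided by the library's total and scaled to a common total (CPM). Levels of different genes were compared only in the deposited FPKM, which is divided by gene length. The length behind the FPKM was 1201 bases for Syp, which has 5211 annotated exon bases, and 3235 for Syn1, which has 3299. Orders and shares between genes therefore depend on the lengths used. The melanocyte genes Dct and Pmel were high in every library, at 7552 to 11133 CPM and 4612 to 8178 CPM. In the vesicle genes 1 library stood furthest from its own group: both-tumor IgG replicate 2, described with each result that rests on it. Its sample name in the labels also ends differently from the 11 others (B2 in place of B), and what this marks is not stated there. Other groups were not uniform. The members summed to 190 CPM in intracranial-only IgG replicate 2, against 332 and 489 CPM in its group. In both-tumor therapy replicate 1 they summed to 374 CPM, against 1146 and 893 CPM. Intracranial-only IgG replicate 2 also had 28.3 CPM of T cell markers, against 2.03 and 1.30 CPM, and 473 CPM of macrophage markers, against 98.3 and 110 CPM.

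The SNARE partner Snap25 (GRCm38, chr2:136713453-136782428, + strand) had 71.3, 25.2 and 89.4 CPM with IgG in mice with an intracranial tumor only, and 2.11, 0.368 and 0.493 CPM with therapy. In mice with both tumors it had 67.3, 1.21 and 124 CPM with IgG and 63.4, 232 and 207 CPM with therapy. All 3 intracranial-only therapy libraries lay below all 3 of intracranial-only IgG and all 3 of both-tumor therapy, and both-tumor IgG replicate 2 lay with the low ones. The other SNARE on the outer membrane, Stx1a (chr5:135023482-135051100, + strand), was not near 0 anywhere. Its values were 13.9, 11 and 28.4 CPM in intracranial-only IgG and 12.7, 11.5 and 11.3 CPM in intracranial-only therapy. With both tumors it had 26.5, 7.94 and 31.9 CPM with IgG and 18.5, 55.0 and 39.2 CPM with therapy. For Stx1a the intracranial-only groups overlapped, while the therapy groups did not.

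Vamp2 (chr11:69088490-69092384, + strand), the vesicle SNARE, was present at 86.4, 64.6 and 122 CPM in intracranial-only IgG and at 43.0, 56.6 and 46.6 CPM in intracranial-only therapy. In both-tumor IgG it was at 93.6, 41.0 and 128 CPM, and in both-tumor therapy at 106, 212 and 168 CPM. The intracranial-only therapy libraries were thus lower than the IgG ones without overlap, but none was below 43 CPM.

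The calcium sensor Syt1 (chr10:108497650-109010982, − strand) had 36.8, 15.5 and 65.6 CPM in intracranial-only IgG and 1.79, 0.474 and 0.0897 CPM in intracranial-only therapy. It had 48.8, 0.533 and 82.9 CPM in both-tumor IgG and 38.5, 171 and 119 CPM in both-tumor therapy. Its low libraries were those of Snap25.

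Among the vesicle membrane proteins, Syp (synaptophysin, chrX:7638471-7653256, + strand) had 35.6, 14.1 and 53.7 CPM in intracranial-only IgG and 2.16, 0.737 and 0.493 CPM in intracranial-only therapy. It had 42.7, 1.40 and 63.0 CPM in both-tumor IgG and 39.0, 173 and 121 CPM in both-tumor therapy. Sv2a (chr3:96181151-96195521, + strand), the binding site of the antiepileptic drug levetiracetam, kept a clear level in the same libraries. It had 46.7, 37.4 and 74.9 CPM in intracranial-only IgG and 26, 28.8 and 24.7 CPM in intracranial-only therapy. With both tumors it had 57.8, 18.5 and 78.1 CPM with IgG and 67.8, 118 and 101 CPM with therapy.

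The synapsins had the low-library pattern. Syn1 (chrX:20860511-20921004, − strand) had 17.2, 9.13 and 25.9 CPM in intracranial-only IgG, 0.541, 0.631 and 0.135 CPM in intracranial-only therapy, 23.4, 0.581 and 35.0 CPM in both-tumor IgG, and 19.2, 73.9 and 57.4 CPM in both-tumor therapy. Syn2 (chr6:115134902-115282006, + strand) had 16.5, 9.18 and 19.5 CPM in intracranial-only IgG, 0.974, 0.263 and 0.179 CPM in intracranial-only therapy, 19.7, 0.194 and 26.8 CPM in both-tumor IgG, and 13.6, 81.0 and 56.0 CPM in both-tumor therapy. Amph (chr13:18948205-19150921, + strand) had the lowest mean of the 9 per length (FPKM) in every group. It had 7.08, 4.33 and 9.71 CPM in intracranial-only IgG, 8.10, 0.291 and 12.5 CPM in both-tumor IgG, and 8.15, 30.4 and 24.2 CPM in both-tumor therapy. In intracranial-only therapy it had 0, 0.0526 and 0.0449 CPM, where the 0 of replicate 1 allows up to 0.162 CPM at that depth.

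**Figure D1:**
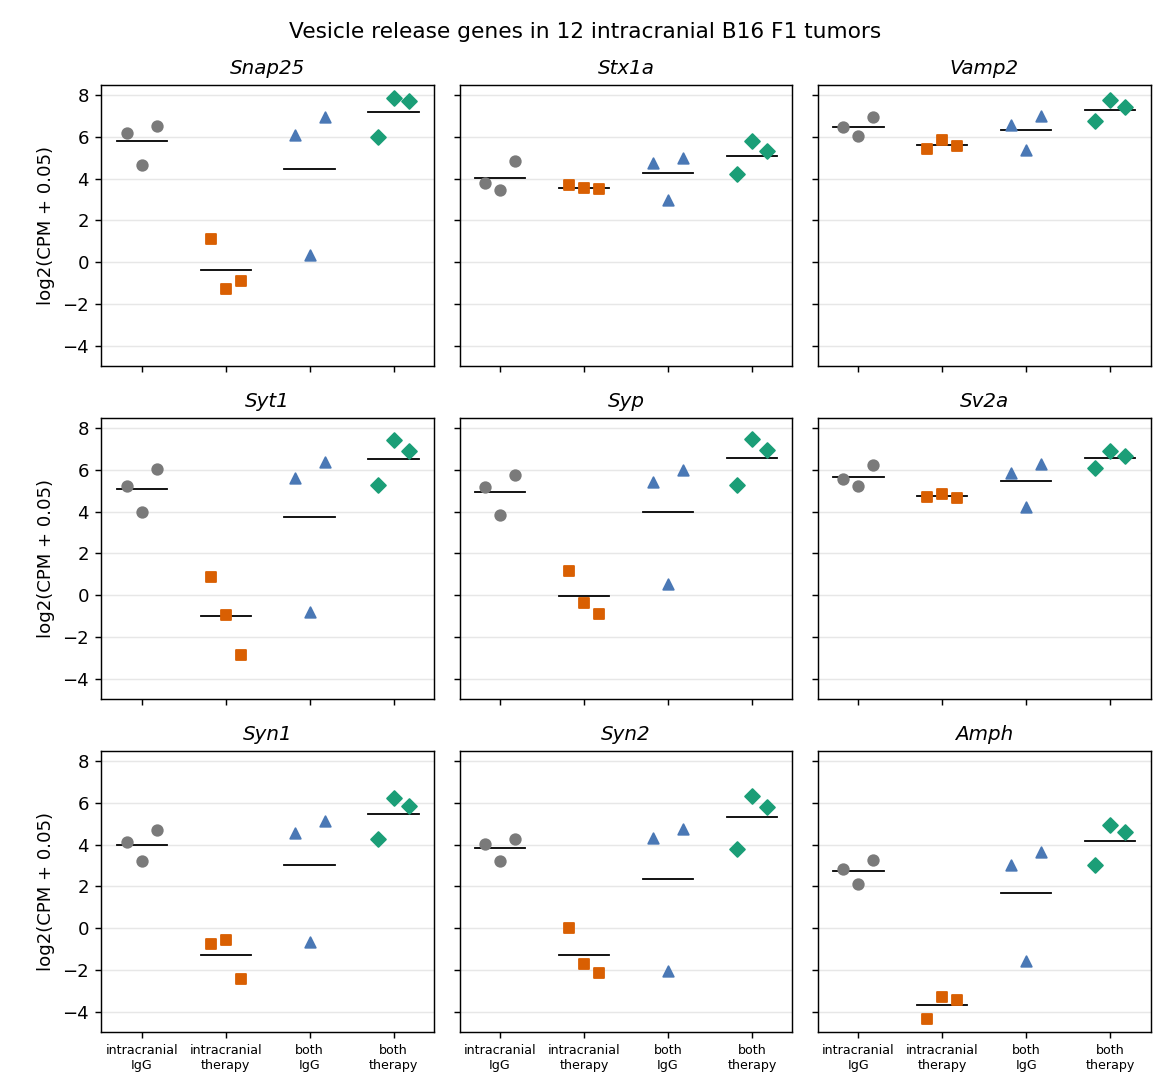
Each panel plots 1 gene: the vertical axis is log2(CPM + 0.05), the points are the 3 libraries of each group in the order replicate 1 to 3, and the bar is their mean on that scale. In Snap25, Syt1, Syp, Syn1, Syn2 and Amph the intracranial-only therapy libraries and both-tumor IgG replicate 2 sit far below the rest, and in Stx1a, Vamp2 and Sv2a they sit close to it.

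With therapy in mice with an intracranial tumor only, the mean CPM of Amph was 0.462% of that with IgG, Snap25 1.60%, Syt1 1.99%, Syn1 2.50%, Syn2 3.14% and Syp 3.28%. Stx1a kept 66.6%, Vamp2 53.6% and Sv2a 50%. No member lay between 3.28% and 50%. This division into 6 and 3 genes was seen in the values and is a description, with no test. Of all 15925 genes tested, 3.72% were under 5% of the IgG mean and 86.3% were at 50% or more. In both-tumor IgG replicate 2 the same 6 genes were at 0.809% (Syt1) to 2.82% (Amph) of the mean of the other libraries of its group, and Stx1a, Vamp2 and Sv2a at 27.2%, 36.9% and 27.2%.

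Corrected by the lengths of the deposited FPKM, levels had the same ends in every group. Vamp2 had the highest mean FPKM of the 9, at 84.2 ± 26.6 (SD, n = 3) in intracranial-only IgG, 45.2 ± 6.54 in intracranial-only therapy, 81.2 ± 40.8 in both-tumor IgG and 150.3 ± 49.5 in both-tumor therapy, and Amph had the lowest. In intracranial-only IgG the order below Vamp2 was Sv2a (28.9 ± 10.6 FPKM), Syp (28.7 ± 16.5), Snap25 (23.2 ± 12.4), Syt1 (13.1 ± 8.39), Stx1a (12.9 ± 6.78), Syn2 (5.53 ± 1.95), Syn1 (5.38 ± 2.60) and Amph (3.23 ± 1.24). There the libraries of Vamp2 and Sv2a did not overlap, nor did those of Stx1a and Syn2, and every other pair of neighbours overlapped. In intracranial-only therapy Vamp2, Sv2a (14.4 ± 1.13 FPKM) and Stx1a (8.61 ± 0.529 FPKM) formed the top of the order without overlap, and the 6 others (Syp, Snap25, Syt1, Syn2, Syn1 and Amph in that order) were at a mean of 0.942 FPKM or less, with neighbours other than Syn1 and Amph overlapping. In both-tumor therapy Syp (92.6 ± 56.4 FPKM) and Snap25 (62.6 ± 34 FPKM) followed Vamp2, ahead of Sv2a (52.1 ± 13.9), Syt1 (36.6 ± 22.3), Stx1a (27.4 ± 13.3), Syn2 (18.4 ± 12.5), Syn1 (15.5 ± 8.67) and Amph (9.62 ± 5.29). In both-tumor IgG the order was Vamp2, Syp (29.7 ± 26.2 FPKM), Sv2a (28.1 ± 16.5), Snap25 (24 ± 23), Stx1a (16.1 ± 9.15), Syt1 (14.7 ± 13.8), Syn1 (6.08 ± 5.42), Syn2 (5.71 ± 5.06) and Amph (3.2 ± 2.84). In both groups with an extracranial tumor every pair of neighbours overlapped.

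The upstream sequence of 4 members is shown because they stand on the 2 sides of that division: Syn1 and Syt1 near 0 with therapy, Stx1a and Sv2a not. The sequences are from RefSeq (GRCm38.p6), and 7 of the 9 members, with 9 starts, were matched in the promoter table used. Each runs 5′ to 3′ on the gene's strand and is cut where an annotated exon begins: Syn1 at chrX:20921005-20921168 (− strand), Syt1 at chr10:109010983-109011225 (− strand), Stx1a at chr5:135023232-135023481 (+ strand) and Sv2a at chr3:96180977-96181150 (+ strand). Capitals mark exact matches, on either strand, to the letters TTCAGCACC (the 5′ portion of the RE1 element, which the neuronal-gene repressor REST binds), TGACGTCA (CRE), CCAAT and GGGCGG (GC box).
Syn1: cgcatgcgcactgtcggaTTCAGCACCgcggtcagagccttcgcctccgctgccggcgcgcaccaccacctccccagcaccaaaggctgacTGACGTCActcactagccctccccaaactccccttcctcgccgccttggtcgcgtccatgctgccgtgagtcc
Syt1: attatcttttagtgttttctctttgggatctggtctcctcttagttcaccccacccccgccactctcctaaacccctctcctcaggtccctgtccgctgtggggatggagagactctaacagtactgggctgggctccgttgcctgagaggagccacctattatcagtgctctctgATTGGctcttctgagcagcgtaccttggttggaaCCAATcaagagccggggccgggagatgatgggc
Stx1a: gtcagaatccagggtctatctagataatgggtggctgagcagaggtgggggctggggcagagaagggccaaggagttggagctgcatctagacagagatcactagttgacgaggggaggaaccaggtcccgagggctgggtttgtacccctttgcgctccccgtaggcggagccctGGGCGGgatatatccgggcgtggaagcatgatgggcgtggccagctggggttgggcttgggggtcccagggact
Sv2a: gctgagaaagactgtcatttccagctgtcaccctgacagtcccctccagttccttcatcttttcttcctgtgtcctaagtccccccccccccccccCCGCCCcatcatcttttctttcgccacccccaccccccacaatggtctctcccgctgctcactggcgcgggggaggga

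The RE1 portion began 232 bases before the Syn1 start and the CRE 159 bases before it. Of 32851 mouse promoter windows of 250 bases, 0.301% held the RE1 portion, 1.55% the CRE, 33.8% a CCAAT and 32.7% a GC box. No window of another member held the RE1 portion, and none of the 7 members held the letters TATAAA, which 12.4% of all windows held. Syt1 had CCAAT matches 40 and 74 bases before its first start and a GC box 11 bases before it, which runs past the printed end and is not marked. GC boxes lay 74 bases before the Stx1a start, 154 before that of Sv2a, 67 and 49 before that of Syp, and 37 and 13 before the first start of Syn2, so genes on both sides of the division had them. A match is a description of the letters, and a lack of one says nothing about a factor.

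The therapy comparison in mice with an intracranial tumor only asks whether the antibodies changed the tumor when there was no tumor elsewhere. All 9 members had fitted log2 fold changes below 0, and none passed the test, edgeR's quasi-likelihood test with Benjamini-Hochberg adjustment over all genes at 0.05. The percentage of all tested genes called was 0. The fitted log2 fold change was -5.94 ± 1.39 (SE) for Snap25 (adjusted p = 0.134), -5.64 ± 1.48 for Syt1 (0.134), -5.28 ± 1.23 for Syn1 (0.134), -4.97 ± 1.34 for Syn2 (0.136), -4.90 ± 1.21 for Syp (0.134) and -7.44 ± 1.40 for Amph (0.134). It was -0.95 ± 0.43 for Sv2a (0.362), -0.85 ± 0.38 for Vamp2 (0.359) and -0.54 ± 0.52 for Stx1a (0.709). Amph rested on 2 reads in the therapy libraries and 398 with IgG, a pooled ratio of 209 with a 95% counting interval of 57.6 to 1735. At an unadjusted p under 0.05 there were 8 of 9 members, beside 13.5% of all genes, and in 8 of 9 all therapy libraries lay below all IgG libraries, beside 16.2% of all genes. This count of 0 changed without both-tumor IgG replicate 2, which is in neither group. That library enters through the shared filter on low counts, the scaling and the estimate of spread. Without it 6 members were called lower (Snap25, Syt1, Syn1, Syn2, Syp and Amph, adjusted p = 0.00253 to 0.00603 in edgeR), beside 6.12% of all genes. DESeq2 also called 6 lower, beside 6.47% of all genes, and a fit on the compared groups alone called 6, beside 5.76%.

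The same therapy comparison in mice with both tumors gave 0 of 9 members called, beside 5.39% of all genes. At an unadjusted p under 0.05 in edgeR there was 1 member, Vamp2, beside 33.4% of all genes. All 9 fitted values were above 0, from 0.77 ± 0.52 (SE) for Stx1a to 1.71 ± 1.07 for Syn2, with adjusted p from 0.130 to 0.404 (edgeR), and the libraries of the 2 groups overlapped for all 9, where 18.7% of all genes were higher without overlap. DESeq2 and both limma fits on log2 FPKM also called 0 members. Without both-tumor IgG replicate 2 the values were smaller, at 0.83 for Snap25, 0.76 for Syt1 and 0.38 for Stx1a.

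The effect of a second tumor was compared first with IgG. No member was called, none had an unadjusted p under 0.05 in edgeR, beside 1.18% of all genes, and 0% of all genes were called. DESeq2 called none. Fitted values ran from -0.07 (Vamp2 and Sv2a) to 0.29 ± 0.52 (Stx1a), and the groups overlapped for all 9, where 1.62% of all genes were higher and 3.08% lower without overlap. The standard error of Snap25 was 1.05 and of Syt1 1.12, so that a several-fold difference could not be told from none. Without both-tumor IgG replicate 2, Snap25 was 0.58 and Syt1 0.71 higher with both tumors on the log2 scale.

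With therapy, all 9 members were higher in the intracranial tumors of mice that also had an extracranial tumor. All 9 passed edgeR's test, beside 24.4% of all genes called higher and 45.4% called in either direction. The log2 fold change was 7.36 ± 1.45 (SE) for Snap25 (adjusted p = 0.00469), 7.11 ± 1.55 for Syt1 (0.0058), 6.80 ± 1.29 for Syn1 (0.00458), 6.69 ± 1.41 for Syn2 (0.00527), 6.58 ± 1.28 for Syp (0.00464) and 8.99 ± 1.42 for Amph (0.00455). Amph had 1302 reads with both tumors and 2 with an intracranial tumor only, a pooled ratio of 621 (95% counting interval 172 to 5133). The other 3 rose by less: Sv2a by 1.78 ± 0.43 (0.00856), Vamp2 by 1.67 ± 0.38 (0.00705) and Stx1a by 1.60 ± 0.53 (0.0301). No library of one therapy group overlapped the other in any of the 9, as for 35.1% of all genes in this direction.

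Whether the therapy difference itself depended on the second tumor was tested as an interaction. The fitted therapy difference was higher with both tumors than with the intracranial tumor alone in all 9 members. Of these, 8 passed the test, beside 12.1% of all genes called in this direction and 22% in either. The difference of log2 fold changes was 9.05 ± 1.68 (SE) for Amph, 7.35 ± 1.74 for Snap25, 6.98 ± 1.86 for Syt1, 6.68 ± 1.72 for Syn2, 6.66 ± 1.56 for Syn1 and 6.57 ± 1.55 for Syp, with adjusted p of 0.0321 to 0.0329 in edgeR. Sv2a (1.85 ± 0.60, adjusted p = 0.0495) and Vamp2 (1.74 ± 0.53, 0.0432) passed narrowly, and Stx1a did not (1.31 ± 0.73, 0.205). These calls were lost, with 0 of 9 left, when any 1 of 8 libraries was left out: replicates 2 and 3 of intracranial-only IgG, all 3 replicates of intracranial-only therapy, the first replicate of both-tumor IgG, and replicates 2 and 3 of both-tumor therapy. In each of these 8 fits 0 genes of all were called, so the loss was of every call of this test, in the other gene lists too. No member changed direction on leaving out a library.

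**Figure D2:**
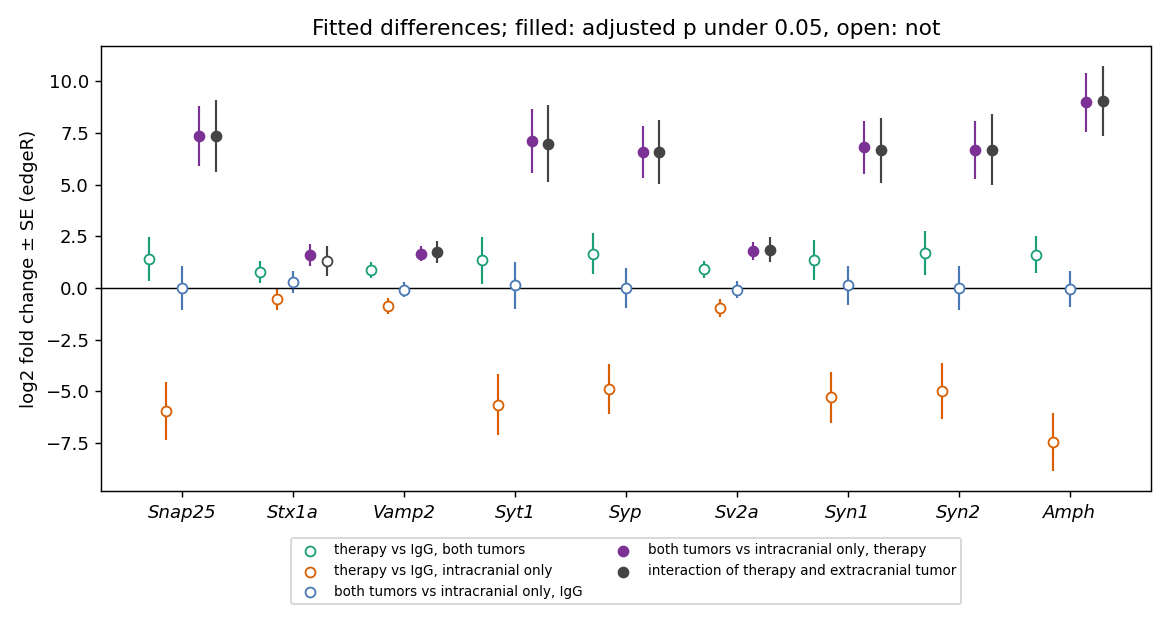
For each gene the points give the fitted log2 fold change of the 5 comparisons on the vertical axis, with bars of 1 standard error; filled points have an adjusted p under 0.05. The filled points are the 9 of both tumors against intracranial only under therapy and 8 of the interaction, with Stx1a open.

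The vesicle genes moved with markers of neurons and of other brain cells. A list of 16 neuron markers that holds no vesicle gene summed to 140 to 164 CPM in intracranial-only therapy and 143 CPM in both-tumor IgG replicate 2, against 406 to 712 CPM in intracranial-only IgG, 689 and 862 CPM in the other both-tumor IgG libraries and 727 to 1915 CPM in both-tumor therapy. Of the 16, Rbfox3, Nefm, Nefh and Elavl4 had no read in intracranial-only therapy replicate 2, and Nefl and Elavl3 none in replicate 3. All 16 rose with both tumors under therapy (Tubb3, a neuronal tubulin, by 1.84 ± 0.25 SE, and the kinase Camk2a by 7.20 ± 1.54 on the log2 scale), beside 24.4% of all genes called higher. All 16 also passed the interaction test, beside 12.1% of all genes called higher, with 0 of 16 left in the same 8 fits without a library. The values that follow are those of both tumors against intracranial only under therapy. The median fitted value was 6.53 for this list and 6.69 for the 9 members, and 0.03 over all genes. In intracranial-only therapy against IgG, Tubb3 remained at 62.0% of its IgG mean, and 10 of 16 markers were under 5%.

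Per library, the mean log2 CPM of the 9 members ran from 0.37 to 6.71 and that of the neuron markers from -0.02 to 6.09. The difference between both means was 0.39 to 0.92 in all 12 libraries. By group it was 0.76 ± 0.05 (SD, n = 3) in intracranial-only IgG, 0.61 ± 0.26 in intracranial-only therapy, 0.72 ± 0.18 in both-tumor IgG and 0.57 ± 0.04 in both-tumor therapy. The groups' difference in the members' mean was 5.08 under therapy, where that of the ratio was -0.04. With the neuron marker mean as a covariate no member, and 0 genes of all, were called in any comparison. That mean followed the members closely, with Pearson's r from 0.85 for Stx1a to 1 for Syp. It was -0.02 to 0.95 in intracranial-only therapy and 4.36 to 6.09 in both-tumor therapy. Under therapy the covariate thus nearly stood for the group, and this fit cannot separate them. In bulk tissue, fewer cells of a type and less RNA per cell cannot be told apart.

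**Figure D3:**
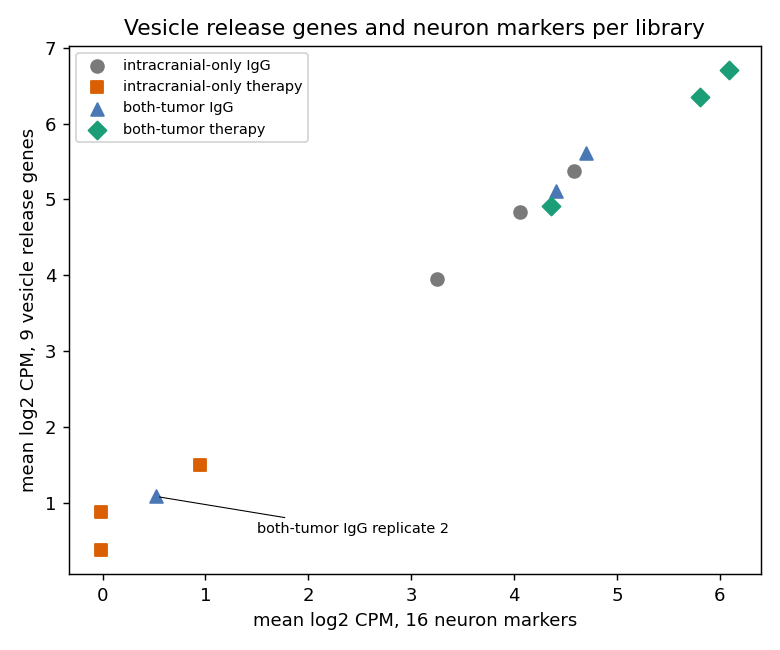
Each point is 1 library, with the mean log2 CPM of 16 neuron markers on the horizontal axis and that of the 9 vesicle release genes on the vertical axis. The 3 intracranial-only therapy libraries and both-tumor IgG replicate 2 lie at the lower left, at 1.49 or less on the vertical axis, and the 8 others lie at 3.95 or more.

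Other brain cell markers moved in the same libraries. Under therapy, 11 of 12 astrocyte markers, 11 of 12 oligodendrocyte markers and 10 of 10 microglia markers were called higher with both tumors, with medians of 3.12, 5.88 and 3.66 on the log2 scale. Beside these and the counts below, 24.4% of all genes were called higher in this comparison. The astrocyte list summed to 355 to 376 CPM in intracranial-only therapy and 1306 to 2234 CPM in both-tumor therapy, and the microglia list to 45.7 to 58.2 and 218 to 444 CPM. No melanocyte marker of 10 was called in any comparison. Their sum was 25269 to 33783 CPM in intracranial-only therapy and 29412 to 35337 CPM in both-tumor therapy. T cell markers summed to 2.53 to 14.4 CPM in intracranial-only therapy and 60.9 to 123 CPM in both-tumor therapy, and 9 of 10 were called higher. That count was 2 without intracranial-only therapy replicate 1, 1 without its replicate 2, and 3 without replicate 2 or 3 of both-tumor therapy. Macrophage markers summed to 106 to 170 CPM in intracranial-only therapy and 645 to 865 CPM in both-tumor therapy, with 6 of 10 called higher (3 without intracranial-only therapy replicate 1). Endothelial markers summed to 80.4 to 116 and 154 to 214 CPM, with 6 of 10 called higher. The part of any of these cells in the vesicle gene results was not tested.

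A further 38 genes of the vesicle and release machinery were listed, among them priming factors, active zone scaffolds, complexins and the near relatives of the members. Under therapy 32 of 38 were called higher with both tumors, beside 24.4% of all genes, and 0 lower. In the interaction 21 of 38 passed the test, beside 12.1% of all genes called higher, with 0 of 38 left in the 8 fits named above. The values that follow are for both tumors against intracranial only under therapy. The active zone scaffold Pclo (piccolo) was 4.40 ± 0.76 (SE) and the vesicle protein Syt5 5.85 ± 1.06 higher on the log2 scale, both with an adjusted p of 0.00455 (edgeR). The complexin Cplx1, which binds the assembled SNAREs, was 7 ± 1.33 higher (adjusted p = 0.00458, edgeR) and was chosen for this text after its values were seen. In intracranial-only therapy, 13 of the 38 had under 5% of their IgG mean, 15 had 5% to under 50% and 10 had 50% or more, so that the list filled the range in which no member lay.

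Among those of the 38 with a high mean CPM, Syngr1 (synaptogyrin) was at 210 to 403 CPM over all 12 libraries and Dnajc5, a chaperone of vesicle proteins, at 154 to 219 CPM. Dnajc5 passed no test, with -0.12 ± 0.13 (SE) for both tumors against intracranial only under therapy (adjusted p = 0.496, edgeR). Syngr1 was 0.39 ± 0.14 higher (0.0486).

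**Figure D4:**
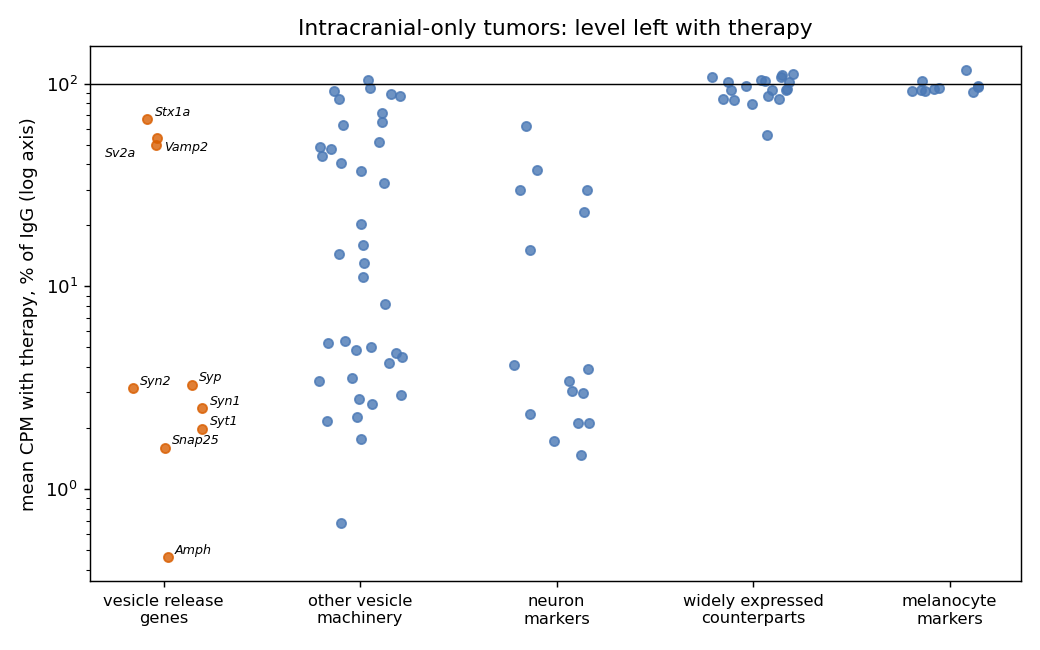
Each point is a gene, and the vertical log axis gives its mean CPM in intracranial-only therapy as a percentage of that in intracranial-only IgG, for the 9 members, 38 other vesicle genes, 16 neuron markers, 19 widely expressed relatives and 10 melanocyte markers; the line marks 100%. The members lie in 2 clumps, 0.462% to 3.28% and 50% to 66.6%, and the widely expressed relatives lie at 55.5% or more.

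Most cells use relatives of the neuronal proteins for their own vesicle traffic. Of 20 such genes listed, 19 were matched and tested. Under therapy 6 of 19 were called higher with both tumors, a share near the 24.4% of all genes, and 0 lower, with a median of 0.29 on the log2 scale. The count was 3 without intracranial-only therapy replicate 3 or without both-tumor therapy replicate 2. In the interaction 1 of 19 passed the test, beside 12.1% of all genes called higher. It was Stx4a (0.82 ± 0.19 SE, adjusted p = 0.0321, edgeR), a SNARE of the outer membrane in many cell types. Rab27a and Sytl2, which serve melanosome transport in pigment cells, were at 392 to 704 CPM and 130 to 260 CPM over all libraries and were called in no comparison. Vamp8, a SNARE of lysosomes and secretory granules, was at 138 to 262 CPM and was 0.52 ± 0.15 higher under therapy (0.0194).

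The members were also set against their nearest relatives in FPKM, so these shares too depend on the gene lengths used. Snap25 made up a median of 46.8% of Snap25 plus Snap23 in intracranial-only IgG, 0.585% in intracranial-only therapy, 42.5% in both-tumor IgG and 62.4% in both-tumor therapy. Snap23, its widely expressed relative, was at 36.7 to 62.7 CPM over the 12 libraries and was called higher with both tumors under therapy (0.51 ± 0.12 SE, adjusted p = 0.00735, edgeR). Syp made up 23.7%, 0.672%, 26.4% and 51.9% of Syp plus Sypl in the same order of groups, and Sypl was at 156 to 186 CPM in all 12 libraries and was called in no comparison. Amph made up 6.73%, 0.0602%, 8.50% and 17.1% of Amph plus Bin1. For the vesicle SNARE the range was narrower, and Vamp2 made up 55.0%, 41.1%, 59.8% and 72.9% of Vamp2 plus Vamp3, and 91.7%, 90.9%, 92.3% and 93.5% of Vamp2 plus Vamp1. Between genes that were both near 0 in the low libraries the group medians were closer: Syt1 made up 95.5%, 80.7%, 95.4% and 96% of Syt1 plus Syt2, and Syn1 46.7%, 38.7%, 52.4% and 46.4% of Syn1 plus Syn2. In intracranial-only therapy these shares rested on few reads, 44 of Syt1, 8 of Syt2, 25 of Syn1 and 27 of Syn2. Single libraries there ran from 31.7% to 93.9% for Syt1 and from 31.9% to 66.9% for Syn1.

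For Sv2a and its neuronal relative Sv2b the share went the other way. Sv2a made up 76.3% of Sv2a plus Sv2b in intracranial-only IgG, 97.3% in intracranial-only therapy, 77.9% in both-tumor IgG and 69.5% in both-tumor therapy. The fitted difference of Sv2b with both tumors under therapy was 5.66 ± 1.10 (SE, adjusted p = 0.00464, edgeR), where that of Sv2a was 1.78. The difference between the genes of a pair was not tested.

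Of 12 genes that make, load and recycle transmitter, 9 were tested, and 7 of 9 were called higher with both tumors under therapy. Beside this and the 2 counts below, 24.4% of all genes were called higher in that comparison. Slc17a7, the vesicular glutamate transporter of cortical and hippocampal excitatory neurons, was 7.6 ± 1.5 (SE) higher (adjusted p = 0.0047, edgeR). Slc32a1, which loads GABA and glycine, was 6.66 ± 1.31 higher (0.00469). All 8 presynaptic calcium channel subunits were called higher, from 1.69 ± 0.47 for Cacna1a, the pore of the P/Q-type channel, to 9.81 for Cacna2d3. Cacna2d3 had no read in intracranial-only therapy, so its fitted value depends on the prior count of the fit. Of dense-core vesicle cargo, which is released by a related route, 9 of 9 were called higher. Cpe (carboxypeptidase E) of that list had 769 CPM or more in every library.

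Other tested genes were ranked by how closely their log2 CPM followed the mean of the 9 members across the 12 libraries, with unnamed gene models left out. The first 10 were Ankrd45 (Pearson's r = 0.9981), Atp1b1 (0.9978), Nat8l, Vstm2b, Ina, Kcnc1, Map9, Slc17a7, Celf4 and Opcml (0.9967). Atp1b1 is a subunit of the sodium pump, Ina a neuronal intermediate filament and Kcnc1 a potassium channel. Each member against the mean of the other 8 gave an r of 0.97 or more for Snap25, Syt1, Syp, Syn1, Syn2 and Amph, 0.94 for Sv2a, 0.93 for Vamp2 and 0.83 for Stx1a. These 12 points share the low level of the 4 libraries named above, and r is given as a description.

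For 3 members other genes share exon bases on the opposite strand, and the labels do not say whether counting used the strand. The antisense gene Gm14703 shares 875 of 5211 exon bases of Syp, Timp4 shares 90 of 7031 of Syn2 and Araf 9 of 3299 of Syn1, so that reads of these pairs cannot be fully told apart.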

How the data were processed

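RNA of 12 intracranial tumors was sequenced after extraction with the RNAqueous-Micro kit and library preparation with the NEBNext Ultra kit, per the labels' protocols. The submitters' processing notes name TopHat2 2.0.12, Bowtie2 2.2.3, HTSeq 0.6.1 and GRCm38 (mm10). The authors deposited whole read counts per gene and FPKM, both used here, and the FPKM followed from count, library total and gene length in 16062 of 16062 genes checked, within a relative difference of 1e-06. Strand use and annotation release are not given in the sources used here. Of 47069 genes, 46488 had a symbol in the table used for matching.

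Counts were fitted with edgeR 4.0.16 (quasi-likelihood, TMM scaling, R 4.3.3) on all 12 libraries with 4 group means, after filterByExpr with a minimum count of 10 and a total of 15. Each standard error was the absolute log2 fold change over √F. The common biological coefficient of variation, 1 value for all tested genes, was 33.5%. Members could spread far more within a group, as Snap25 did from 1.21 to 124 CPM in both-tumor IgG. Adjusted p-values are Benjamini-Hochberg over 15925 genes. Scores used log2 CPM with a prior count of 2, and the fits used edgeR's own default prior count. Fitted folds of near-0 genes depend on that default, so Amph also has its ratio of pooled reads with an exact counting interval. Intervals and floors cover counting error only.

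The members and lists were chosen with earlier results of these data known. Named genes were the 9 members, the 3 of highest mean CPM per list and, per comparison, up to 2 called genes of smallest p. The nearest relatives of the members were also named, and the 10 genes most correlated with them once unnamed gene models were left out. Alternatives were RLE scaling, no filter, DESeq2 1.42.0, fits on the compared groups alone, a neuron marker covariate, limma 3.58.1 on log2(FPKM + 1) and log2(FPKM + 0.1), and leaving out each library. On simulated counts for both tumors against intracranial only under therapy (15657 genes), 46%, 78%, 90% and 96% of genes changed 2-, 4-, 8- and 64-fold were recovered, with 7 false calls. Genes were drawn independently there, with no shift shared by the genes of a library, and only genes above a floor of mean count were changed. These rates therefore do not give the recovery of the members. Gene positions are those of GENCODE for GRCm38. Some genes that this rule names are not reported here.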

Additional observations from a re-analysis of the deposited data

Results flagged for a closer look

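The therapy effect differed between mice with both tumors and mice with an intracranial tumor only, by edgeR's interaction test, in 8 members. That test called 12.1% of all genes in the same direction and 22% in either. The differences of log2 fold changes were 9.05 for Amph, 7.35 for Snap25, 6.98 for Syt1, 6.68 for Syn2, 6.66 for Syn1, 6.57 for Syp, 1.85 for Sv2a and 1.74 for Vamp2. The neuron markers passed the same test in 16 of 16 genes. On leaving out 1 library, 0 to 8 members and 0 to 16 neuron markers passed it. In the fits where 0 members passed, 0 genes of all were called. The part of brain tissue content in these differences was not tested.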

How the results depend on the processing

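No paired analysis was made because the labels give no pairing of samples between groups. They give no replicate numbers either, and numbers here follow accession order only. Under therapy, 9 members were called higher with both tumors under RLE scaling, no filter, DESeq2, the compared groups alone and both limma fits, and 8 to 9 on leaving out a library. Of all genes, 23.2% (no filter) to 49.1% (DESeq2) were called there in either direction, and 29.1% to 49.7% on leaving out a library. The interaction kept 8 calls in those of the same settings that allow it and had 0 to 8 on leaving out a library. It called 10.7% (no filter) to 31.1% (DESeq2) of all genes, and 0% to 26.8% on leaving out a library. Therapy against IgG in intracranial-only mice gave 0 calls, 6 with DESeq2, 6 with the compared groups alone and 0 to 6 on leaving out a library.

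With the neuron marker covariate, the calls for both tumors against intracranial only under therapy and for the interaction both became 0. Signs then turned, on the log2 scale, as follows. For therapy against IgG with both tumors, Snap25 was -0.54, Syn1 -0.43, Syn2 -0.46, Syt1 -0.76, Stx1a -0.28, Syp -0.28 and Amph -0.09. For therapy against IgG with an intracranial tumor only, Syn2 was 0.42, Syt1 0.15, Stx1a 1.44, Vamp2 0.52 and Sv2a 0.73. For both tumors against intracranial only with IgG, Snap25 was -0.20, Syn1 -0.02, Syn2 -0.37, Syt1 -0.10, Vamp2 0.11 and Sv2a 0.10. With therapy, Snap25 was -0.13, Syn2 -1.25, Syt1 -1.01, Stx1a -1.16, Vamp2 -0.24, Syp -0.13 and Sv2a -0.54. In the interaction, Syn2 was -0.88, Syt1 -0.91, Stx1a -1.71, Vamp2 -0.34, Syp -0.14 and Sv2a -0.64. The covariate is nearly the members' own level, and the cause was not tested.

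For both tumors against intracranial only with IgG, where no member was called, signs also turned in limma. On log2(FPKM + 0.1), Snap25 was -1.24, Syn1 -0.84, Syn2 -1.21, Syt1 -1.17 and Syp -0.91. On log2(FPKM + 1), Snap25 was -0.82, Syn1 -0.31, Syn2 -0.47, Syt1 -0.56 and Syp -0.69. With the compared groups alone Syn2 was 0. On leaving out a library, Snap25 ran from -0.87 to 0.58, Syn1 -0.55 to 0.71, Syn2 -0.61 to 0.59, Syt1 -0.68 to 0.71, Syp -0.66 to 0.58, Vamp2 -0.42 to 0.25, Sv2a -0.47 to 0.32, Amph -0.75 to 0.51 and Stx1a -0.04 to 0.80.

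The difference in the log2 ratio of vesicle release genes to neuron markers turned to 0.02 (therapy against IgG, intracranial only) and 0.01 (both tumors against intracranial only, IgG) with a prior count of 0.5, and to 0.07 (both tumors against intracranial only, therapy) on log2(FPKM + 0.1). On leaving out a library it ran from -0.13 to 0.05 with IgG and from -0.15 to 0.10 with therapy. Over all genes, therapy against IgG with both tumors gave 858 calls, 3323 with DESeq2, 2630 on log2(FPKM + 1), 1759 on log2(FPKM + 0.1) and 0 with RLE scaling, no filter, the compared groups alone or the covariate. In intracranial-only mice it gave 0 calls, 1030 with DESeq2, 839 with the compared groups alone and 1002 without both-tumor IgG replicate 2. The smallest adjusted p with both tumors was 0.0498 in edgeR.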
